A study of Mus musculus with 8 samples.

Results

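The 10 genes described here encode the regulators that set how much of the mitochondrial genome, and of its partner genes in the nucleus, is expressed. They are the coactivators *Ppargc1a* and *Ppargc1b*, the nuclear factors *Nrf1* and *Esrra*, the mitochondrial transcription genes *Tfam*, *Tfb1m*, *Tfb2m* and *Polrmt*, the mitochondrial DNA (mtDNA) polymerase *Polg*, and *Gadd45gip1*. They were chosen by name, and every probe that carries one of these symbols was taken, which gave 23 probes for 10 of the 26916 genes with a symbol on the array. Of these probes, 20 were well above background on all 8 arrays and were tested, so that each gene has at least 1 tested probe. The remaining 3, a probe each of *Nrf1* (A_55_P2481764), *Tfb1m* (A_51_P215324) and *Polg* (A_55_P2720244), were well above background on no array and give no level.

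RNA came from islets of 4 βUCP2Tg samples and 4 WT samples, all from male mice, and each was hybridised to its own one-colour array. In βUCP2Tg mice a fragment of the rat insulin II promoter drives *Ucp2*, an uncoupling protein gene of the inner mitochondrial membrane, in β-cells, whereas the WT mice were littermates, and both were backcrossed to C57BL/6J. The islets of both groups had been kept at 200 mg/dL glucose for 8 h and came from young adult mice per the study's methods. The labels do not say whether a sample holds 1 mouse or several, so that p-values measure the spread between samples, which may be technical. Islets mix β-cells with other cells, so that fewer cells of a type and less RNA per cell cannot be told apart. *Ucp2* had a scaled log2 signal between 6.99 and 7.71 on the βUCP2Tg arrays and between 0.92 and 1.46 on the WT arrays, as the labels say. A scaled log2 signal is log2 of the spot's intensity minus the 75th percentile of its array, so that 1 unit is a doubling and 0 is the brightness of that percentile. Both groups lay on a single slide with a row for each genotype, and position and genotype cannot be told apart. βUCP2Tg replicate 4 and WT replicate 1 stand apart from their groups in genes of the hypoxia response, and results are given with and without them.

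Mitochondria carry a small circular genome that codes for core subunits of the respiratory chain, while all of the proteins that copy, transcribe and translate it are made from nuclear genes. PGC-1α, the product of *Ppargc1a*, is a coactivator that binds nuclear receptors and other factors, among them ERRα (from *Esrra*) and NRF1, and raises the transcription of genes for respiration and for TFAM. TFAM coats mtDNA and, together with TFB2M and the polymerase POLRMT, starts its transcription. In β-cells this machinery matters because glucose triggers insulin secretion through mitochondrial ATP. *Nrf1* here is nuclear respiratory factor 1 and not *Nfe2l1*, which has shared that short name.

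The bases just before the start sites of 4 regulators are shown. They are *Ppargc1a*, the regulator with the largest difference, and 3 of the others whose upstream bases hold a match to a motif of this pathway. *Polg* also holds such a match and is not shown. They are the 250 bases before the start from RefSeq (GRCm38.p6), 5′ to 3′ on the gene's strand, with motif matches in capitals.
*Ppargc1a*, chr5:51567726-51567975, minus strand: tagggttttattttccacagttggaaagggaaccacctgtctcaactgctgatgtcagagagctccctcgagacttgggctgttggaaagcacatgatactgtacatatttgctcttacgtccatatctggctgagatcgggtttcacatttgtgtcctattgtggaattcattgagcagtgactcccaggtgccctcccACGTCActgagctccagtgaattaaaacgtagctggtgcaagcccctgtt
*Esrra*, chr19:6921809-6922058, minus strand: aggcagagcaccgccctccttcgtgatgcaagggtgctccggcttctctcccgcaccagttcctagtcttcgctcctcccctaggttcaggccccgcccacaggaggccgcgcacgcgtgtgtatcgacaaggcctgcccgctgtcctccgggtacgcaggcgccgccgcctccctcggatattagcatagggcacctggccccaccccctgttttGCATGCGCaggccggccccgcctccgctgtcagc
*Tfam*, chr10:71238045-71238294, minus strand: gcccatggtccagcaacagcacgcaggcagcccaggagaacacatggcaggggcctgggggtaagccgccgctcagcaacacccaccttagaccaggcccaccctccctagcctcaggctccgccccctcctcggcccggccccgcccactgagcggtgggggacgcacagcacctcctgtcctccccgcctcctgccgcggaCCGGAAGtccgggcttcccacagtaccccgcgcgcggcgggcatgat
*Polrmt*, chr10:79746582-79746831, minus strand: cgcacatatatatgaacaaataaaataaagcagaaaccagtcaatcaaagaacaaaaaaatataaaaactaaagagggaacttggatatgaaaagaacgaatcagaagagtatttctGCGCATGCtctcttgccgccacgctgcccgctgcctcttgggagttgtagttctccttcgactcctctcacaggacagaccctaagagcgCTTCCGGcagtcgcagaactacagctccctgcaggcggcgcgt

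Short letter matches were looked for on both strands of the 250 bases before and 50 bases after each start. Of the 10 genes, 8 matched an entry of the promoter table, with 9 start sites in all. The core of the cAMP response element, TGACGT, was found before *Ppargc1a* at positions -50 to -45, read on the other strand as ACGTCA. It was present at 1 of the 9 starts and at 7.51% of 32851 promoters. The NRF1 core GCATGCGC was found at *Esrra* (-34 to -27), *Polrmt* (-133 to -126, other strand) and *Tfb2m* (14 to 21 bases into the transcript), which is 3 of the 9 starts against 2.71% of all promoters. CCGGAAG, the core bound by GABP and other ETS factors, was found at *Tfam* (-47 to -41), *Polrmt* (-43 to -37, other strand) and *Polg* (-38 to -32), also 3 of the 9 starts, against 8.86% of all promoters. The ERR element AAGGTCA was found at 0 of the 9 starts and at 4.72% of all promoters. None of these letters overlapped another match, and a match is a description of the letters and not of binding.

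Among the regulators, *Ppargc1a* alone had a main probe whose arrays did not overlap between the groups, and it was lower in βUCP2Tg than in WT islets. Both of its tested probes gave the same picture, at 2.44-fold and 2.38-fold lower. None of the 10 genes passed the test after adjustment, in which a probe is called at an adjusted p under 0.05 by limma and over 1.5-fold. For comparison, 0.410% of the 35363 tested probes and 0.649% of the 17870 tested genes were called. The main probe of a gene is its probe with the highest mean over the 8 arrays. At an unadjusted p under 0.05, the main probe of 1 regulator was higher in βUCP2Tg islets (*Tfb1m*) and that of 1 was lower (*Ppargc1a*), where 12.9% of all tested genes were higher and 11.6% lower. Groups of the main probe did not overlap for 0 regulators in the higher direction (6.36% of all genes) and 1 in the lower (6.74%). Such shares over 10 genes lie near those of all genes.

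**Figure D1:**
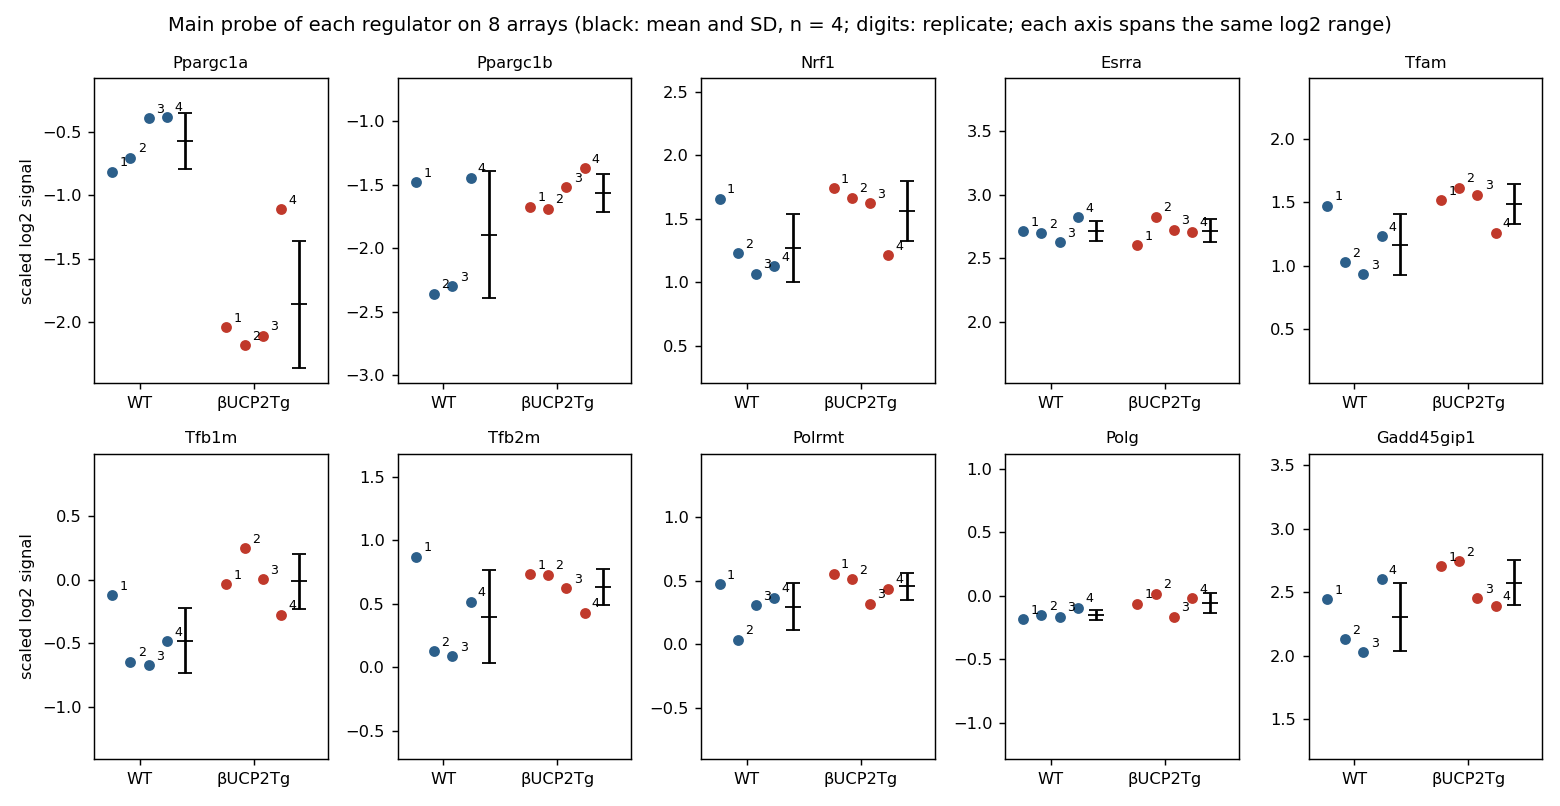
Scaled log2 signal (vertical axis, equally long in every panel and centred on the gene) of the main probe of each of the 10 regulators on the 4 WT arrays (blue) and the 4 βUCP2Tg arrays (red), with replicate numbers and the mean and SD (n = 4) beside the points. *Ppargc1a* is the panel in which the groups do not overlap, with βUCP2Tg replicate 4 at -1.11 and the other βUCP2Tg arrays at -2.04 to -2.18.

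*Ppargc1a* is the inducible member of the PGC-1 coactivator family and the best known switch of mitochondrial biogenesis. Its main probe (A_51_P279038) read -2.04, -2.18, -2.11 and -1.11 on βUCP2Tg replicates 1 to 4 and -0.82, -0.70, -0.39 and -0.38 on WT replicates 1 to 4. Every βUCP2Tg array was below every WT array, and replicate 4 of βUCP2Tg lay between its own group and WT. The log2 difference was -1.29 (95% confidence interval -1.84 to -0.73, adjusted p = 0.0635 by limma). A two-sided exact permutation test of this probe gave p = 0.0286, unadjusted, which is the smallest p that 4 arrays against 4 can give.

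The second probe of *Ppargc1a* (A_55_P2745394) has other letters. Each probe is 60 bases long and the longest run shared by both is 5 bases. Their first 30 bases are shown so that the targets can be told apart.
A_51_P279038: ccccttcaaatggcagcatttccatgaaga
A_55_P2745394: tatgactctctggattttgatagtttactg
This second probe read -4.10, -4.20, -4.59 and -3.57 in βUCP2Tg islets and -3.08, -3.27, -2.59 and -2.51 in WT islets. Again the groups did not overlap, and βUCP2Tg replicate 4 was the highest of its group. Its log2 difference was -1.25 (95% confidence interval -1.82 to -0.68, adjusted p = 0.0663 by limma). Over the 8 arrays the probes had a Pearson r of 0.964, and 0.839 after each group's mean was removed, as a description over arrays that the probes share.

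The call of *Ppargc1a* turned on the arrays and the test used. Without βUCP2Tg replicate 4 its main probe had a log2 difference of -1.53 (adjusted p = 0.0106 by limma), and without WT replicate 1 of -1.37 (adjusted p = 0.0226 by limma), and both fits called it. In the same fits 5.91% and 15.2% of all tested genes were called. Without any 1 of the remaining 6 arrays it was not called, and over all 8 such fits the log2 difference lay between -1.53 and -1.18. It was also called after normexp background correction, at -0.95 (adjusted p = 0.0306 by limma, 1.34% of all genes called), and with an intensity trend in limma (adjusted p = 0.0419, 1.63% of all genes called). The test named in the study's methods called it too when left unadjusted, along with 11.4% of all genes. Without both βUCP2Tg replicate 4 and WT replicate 1 the difference was -1.62 (adjusted p = 0.00109 by limma), with 21.9% of all genes called. Each of the settings that follow called 0 regulators. Leaving out 1 of the other arrays called 0.0283%, 0.0282% and 0.0283% of all genes without βUCP2Tg replicates 1, 2 and 3 and 0.107%, 0.0565% and 0.107% without WT replicates 2, 3 and 4. The share was 0.0557% with no filter on dim probes, 1.15% with probes measured on all 8 arrays, 0.599% with quantile normalization and 0.733% with the percentile taken over those probes alone. It was 0.627% with the deposited normalized values, 0.649% with outlier spots kept, 0.112% with the test of the methods after adjustment, 0.677% with no fold limit, 0.923% with the mean of all probes and 0.0504% with the replicate block.

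**Figure D2:**
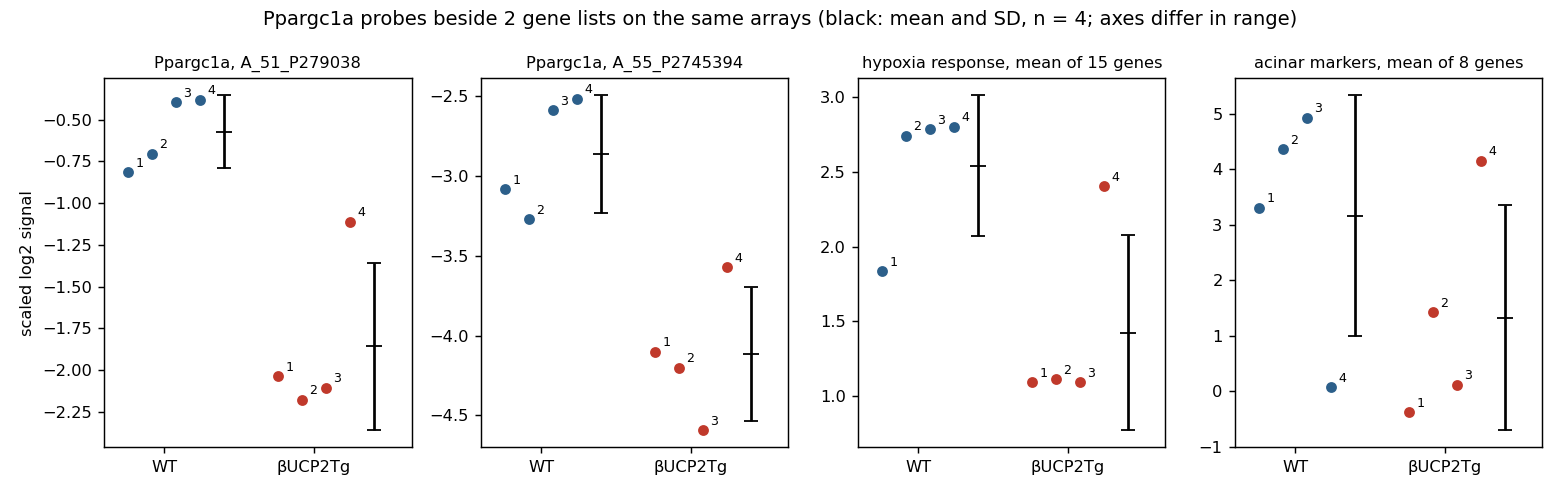
Scaled log2 signal (vertical axes, which differ in range) of both *Ppargc1a* probes and the mean of the hypoxia response and acinar lists on each WT (blue) and βUCP2Tg (red) array, with the mean and SD (n = 4) beside the points. In *Ppargc1a* and in the hypoxia list, βUCP2Tg replicate 4 lies above its group and WT replicate 1 below WT replicates 3 and 4, whereas WT replicate 4 is among the lowest in the acinar list.

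Genes of the hypoxia response, a set of transcripts that rises in low oxygen, were low on most of the arrays on which *Ppargc1a* was low. The mean of the 15 genes was 1.09, 1.11, 1.09 and 2.40 on βUCP2Tg replicates 1 to 4 and 1.84, 2.74, 2.79 and 2.80 on WT replicates 1 to 4. As in the main probe of *Ppargc1a*, βUCP2Tg replicate 4 was the highest of its group and WT replicate 1 the lowest of its own. On the second *Ppargc1a* probe the lowest WT array was replicate 2. Of the 15 hypoxia genes, 12 had a negative and 3 a positive difference (*Car9*, *Ndrg1* and *Pfkfb4*), and 0 were called. At an unadjusted p under 0.05, 11 were lower and 0 higher, against 11.6% and 12.9% of all tested genes. The 8 acinar markers, among them the pancreatic amylase *Amy2a5*, had a mean between -0.38 and 4.15 on the βUCP2Tg arrays and between 0.07 and 4.93 on the WT arrays, with 8 of 8 lower on average and 0 at an unadjusted p under 0.05. Their part in the difference of *Ppargc1a* was not tested.

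*Ppargc1b* encodes PGC-1β, the relative of PGC-1α that is linked to basal mitochondrial content. Its difference had the opposite sign to that of *Ppargc1a*. Its main probe read -1.67, -1.69, -1.52 and -1.37 in βUCP2Tg islets and -1.48, -2.36, -2.30 and -1.44 in WT islets. WT replicates 1 and 4 thus lay among the βUCP2Tg values and WT replicates 2 and 3 below them. The log2 difference was 0.33 (95% confidence interval -0.20 to 0.87, adjusted p = 0.403 by limma), and that of the second probe was 0.52 (-0.20 to 1.24, adjusted p = 0.329 by limma). Without WT replicate 1 the second probe was called higher, at 0.82 (adjusted p = 0.0429 by limma), while the main probe was not. That fit called 15.2% of all genes. The difference of the main probe was 0.18 without WT replicate 2 and 0.20 without WT replicate 3.

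*Nrf1* encodes a factor that binds promoters of respiratory chain and mtDNA maintenance genes. Its main probe read 1.74, 1.66, 1.62 and 1.21 in βUCP2Tg islets and 1.66, 1.23, 1.07 and 1.13 in WT islets. The groups overlapped through βUCP2Tg replicate 4, which sat with WT, and WT replicate 1, which sat with βUCP2Tg. The 3 tested probes had log2 differences of 0.29, 0.22 and 0.44, none of which passed (adjusted p between 0.243 and 0.461 by limma). Without WT replicate 1 the dimmest of them was called higher, at 0.63 (adjusted p = 0.0343 by limma), where 15.2% of all genes were called. With both of those arrays left out the main probe had a difference of 0.53 (adjusted p = 0.0122 by limma), under the fold limit.

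*Esrra* encodes ERRα, an orphan nuclear receptor that works with PGC-1α. Its main probe read 2.60, 2.83, 2.73 and 2.71 in βUCP2Tg islets and 2.71, 2.70, 2.63 and 2.82 in WT islets. The ranges of the groups lay almost on each other. Its log2 difference of 0.0013 had a 95% confidence interval of -0.20 to 0.21, which holds no change beyond 1.5-fold. The other probe (A_52_P198949) read -3.18, -3.24, -3.14 and -2.45 in βUCP2Tg islets and -2.80, -2.18, -2.04 and -2.79 in WT islets. This probe was lower by 0.55 on the log2 scale with overlapping groups (log2 difference -0.55, 95% confidence interval -1.11 to 0.01, adjusted p = 0.202 by limma), so the probes of *Esrra* differed. With both βUCP2Tg replicate 4 and WT replicate 1 left out it was called lower, at -0.85 (adjusted p = 0.0281 by limma), and 21.9% of all genes were called.

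With all 8 arrays, none of the genes that act on mtDNA itself was called. *Tfam*, which packages mtDNA and opens its promoters, read 1.52, 1.62, 1.56 and 1.26 in βUCP2Tg islets and 1.47, 1.03, 0.94 and 1.23 in WT islets. The groups overlapped because WT replicate 1 was above βUCP2Tg replicate 4. Its log2 difference was 0.32 (95% confidence interval -0.0036 to 0.65, adjusted p = 0.202 by limma), and its second probe gave 0.33 (adjusted p = 0.182 by limma). The two-sided exact permutation test gave p = 0.0571 for each probe. Without those arrays the main probe's difference was 0.50 (adjusted p = 0.0227 by limma), under the fold limit.

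*Tfb1m*, which methylates the small ribosomal RNA of mitochondria, had the largest positive difference among the main probes. It read -0.03, 0.25, 0.00 and -0.27 in βUCP2Tg islets and -0.12, -0.64, -0.67 and -0.48 in WT islets. WT replicate 1 lay within the βUCP2Tg range and the other WT arrays below it. The log2 difference was 0.47 (95% confidence interval 0.10 to 0.83, adjusted p = 0.132 by limma, 1.38-fold). Without WT replicate 1 the difference was 0.59 and was called (adjusted p = 0.0320 by limma), as was 0.67 without that array and βUCP2Tg replicate 4 (adjusted p = 0.0119 by limma). Those fits called 15.2% and 21.9% of all genes.

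*Tfb2m*, the transcription initiation factor that works with POLRMT, read 0.73, 0.73, 0.62 and 0.43 in βUCP2Tg islets and 0.87, 0.12, 0.09 and 0.51 in WT islets. Its highest array was thus WT replicate 1 and its lowest WT replicate 3. Its probes had log2 differences of 0.23 and 0.09 (adjusted p = 0.459 and 0.728 by limma). The main probe gave 0.39 without WT replicate 1, 0.14 without WT replicate 2 and 0.13 without WT replicate 3. *Polrmt*, the mitochondrial RNA polymerase, read 0.56, 0.51, 0.32 and 0.44 in βUCP2Tg islets and 0.47, 0.04, 0.31 and 0.37 in WT islets. WT replicate 2 was its lowest array, and the log2 difference was 0.16 (95% confidence interval -0.11 to 0.43), or 0.07 without that array.

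*Polg*, the catalytic subunit of the mtDNA polymerase, had the smallest SD within each group among the 10 main probes. Its main probe lay between -0.16 and 0.02 in βUCP2Tg islets and between -0.19 and -0.09 in WT islets, with a log2 difference of 0.09 (95% confidence interval -0.09 to 0.28). Among its other tested probes, A_55_P1960472 was higher on each βUCP2Tg array than on any WT array, at 0.23 on the log2 scale (95% confidence interval 0.0021 to 0.45, adjusted p = 0.196 by limma), while A_55_P2740312 and A_52_P618580 had differences of 0.04 and -0.09 with overlapping groups. *Gadd45gip1* encodes CRIF1, a part of the mitochondrial ribosome that is needed to insert newly made respiratory chain subunits. It read 2.70, 2.74, 2.45 and 2.39 in βUCP2Tg islets and 2.45, 2.13, 2.03 and 2.60 in WT islets, and the groups overlapped (log2 difference 0.27, 95% confidence interval -0.08 to 0.63, adjusted p = 0.303 by limma), with 0.18 without WT replicate 3.

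**Figure D3:**
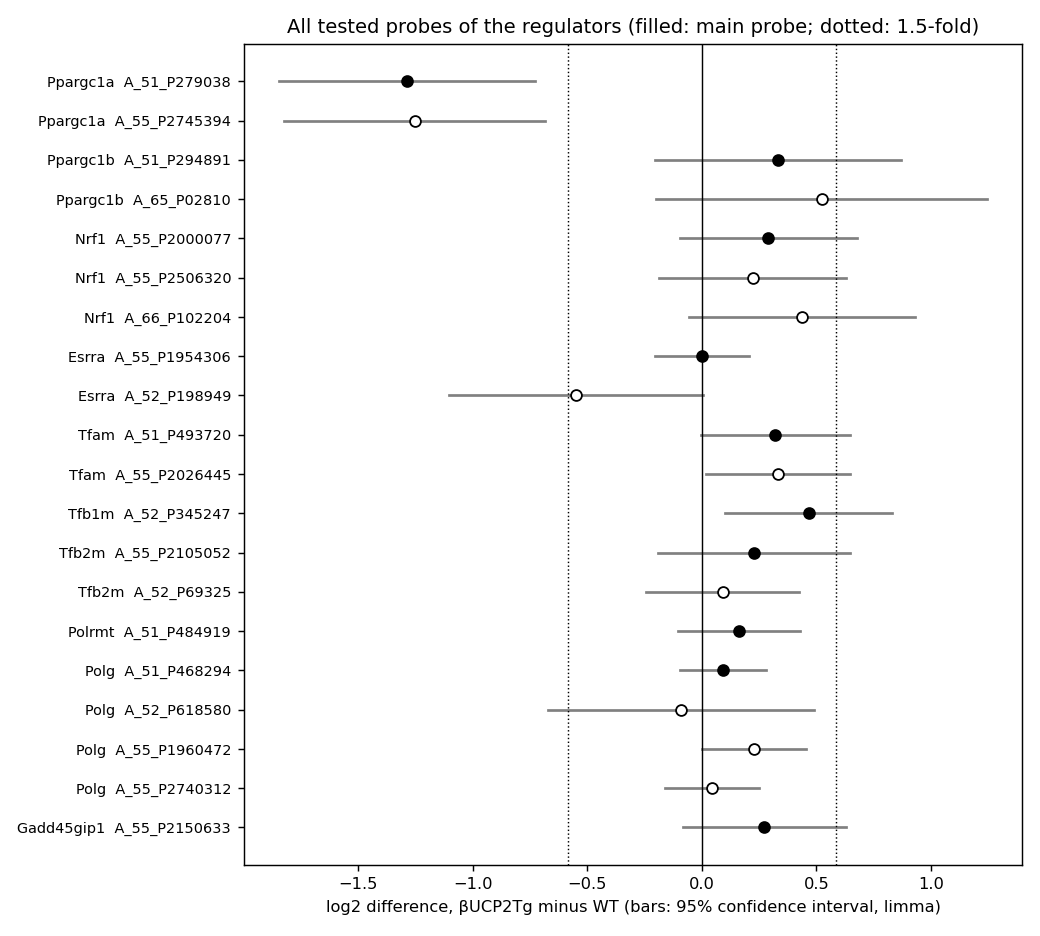
Log2 difference between βUCP2Tg and WT islets (horizontal axis) with its 95% confidence interval for each of the 20 tested probes of the regulators, filled circles for main probes and dotted lines at 1.5-fold. Both *Ppargc1a* intervals lie wholly below the lower dotted line, and no other interval lies wholly beyond a dotted line.

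Counted over main probes, 9 of the 10 regulators had a positive difference and 1 a negative one, with a median of 0.25 on the log2 scale. Over all 17870 tested genes, 9653 differences were positive and 8217 negative, with a median of 0.03. No p is attached to the list, since its members share arrays and move together. How far they move together was read from each array's deviation from the mean of its group, over 8 arrays and as a description. *Tfam* and *Tfb2m* had the highest Pearson r of all pairs (0.954), while *Tfb1m* and *Tfb2m* had 0.889 and *Nrf1* and *Tfam* 0.864. The lowest was -0.843, for *Ppargc1a* and *Nrf1*. In *Nrf1*, *Tfam*, *Tfb1m* and *Tfb2m* the highest WT array was replicate 1 and the lowest βUCP2Tg array was replicate 4, and in the main probe of *Ppargc1a* those arrays were the lowest of WT and the highest of βUCP2Tg.

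**Figure D4:**
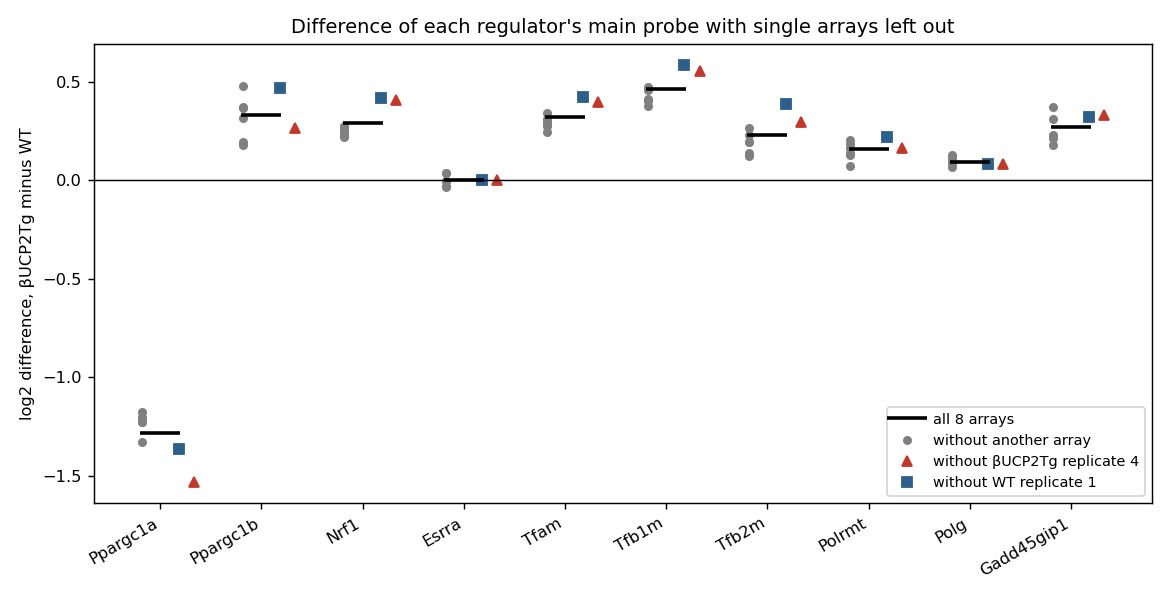
Log2 difference between βUCP2Tg and WT islets (vertical axis) of each regulator's main probe from all 8 arrays (black bar), without WT replicate 1 (blue square), without βUCP2Tg replicate 4 (red triangle) and without each other array (grey). *Ppargc1a* lay between -1.53 and -1.18 and *Tfb1m* between 0.38 and 0.59, and among the 10 genes *Esrra* alone crossed 0 (-0.04 to 0.04).

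When the array-to-array deviations of *Ppargc1a* were set against 30178 probes of other genes, the closest were *Mapk8* (Pearson r of 0.992), *1110006E14Rik* (0.990), *Adgb* (0.989), *Igf1r* (0.986) and *Pam* (0.986), each over 8 arrays, and 47 probes had an r above 0.95. *Mapk8* encodes the stress kinase JNK1, *Igf1r* the IGF-1 receptor and *Pam* an enzyme that amidates peptide hormones. Their log2 differences between the groups ran from -0.76 for *Igf1r* to 0.02 for *Adgb*, and none was called. In *Ppargc1a* the largest of these deviations was that of βUCP2Tg replicate 4.

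Around the regulators, 7 lists of related genes were examined in the same fit. Of the 19 tested genes among other coactivators and upstream controls, 0 were called. At an unadjusted p under 0.05, 3 were higher and 3 lower, against 12.9% and 11.6% of all tested genes. The list's median log2 difference was -0.05, or 0.06 after normexp correction. The lower genes at that limit, named after their values were seen as are those added below, were *Creb1*, *Crtc2* and the PGC-1 relative *Pprc1*, at -0.36 to -0.31. The largest differences were in *Ppara*, the fatty acid receptor and PGC-1α partner (1.08, adjusted p = 0.0859 by limma), *Kat2a*, which acetylates PGC-1α (0.45, adjusted p = 0.0869), and *Prkaa2*, a catalytic subunit of AMP-activated kinase (0.43, adjusted p = 0.167). Without WT replicate 1 or without βUCP2Tg replicate 4, *Ppara* was called higher, at 1.29 and 1.27 (adjusted p = 0.0163 and 0.0350 by limma). Those fits called 15.2% and 5.91% of all genes.

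Among the nuclear factors on respiratory genes, *Esrrg* was the gene that passed the test. *Esrrg* encodes ERRγ, an orphan receptor of the same family as ERRα that is linked to the oxidative metabolism of mature β-cells. Its main probe read 0.04, 0.22, 0.24 and 0.07 in βUCP2Tg islets and -0.41, -1.09, -0.83 and -0.80 in WT islets. Every βUCP2Tg array was above every WT array, also on βUCP2Tg replicate 4 and WT replicate 1. It rose by 0.92 on the log2 scale (95% confidence interval 0.59 to 1.26, adjusted p = 0.0493 by limma), which is 1.90-fold. A second probe (A_55_P2006499) rose by 1.02 (adjusted p = 0.0456 by limma), and the third, dimmer probe had a difference of 0.48 (adjusted p = 0.157 by limma). The calls were close to the limit, and neither probe was called without βUCP2Tg replicate 1, 2 or 3 or without WT replicate 3 or 4. Of the 12 tested genes in this list, 1 was called higher and 0 lower, with a median of 0.02. At an unadjusted p under 0.05 (all tested genes: 12.9% higher and 11.6% lower), *Esrrg*, *Rxra* and *Gabpa* were higher and *Gabpb2* lower. *Thra* (0.53) and *Rxra* (0.35), both nuclear receptors, followed in size without passing (adjusted p = 0.215 and 0.132 by limma).

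**Figure D5:**
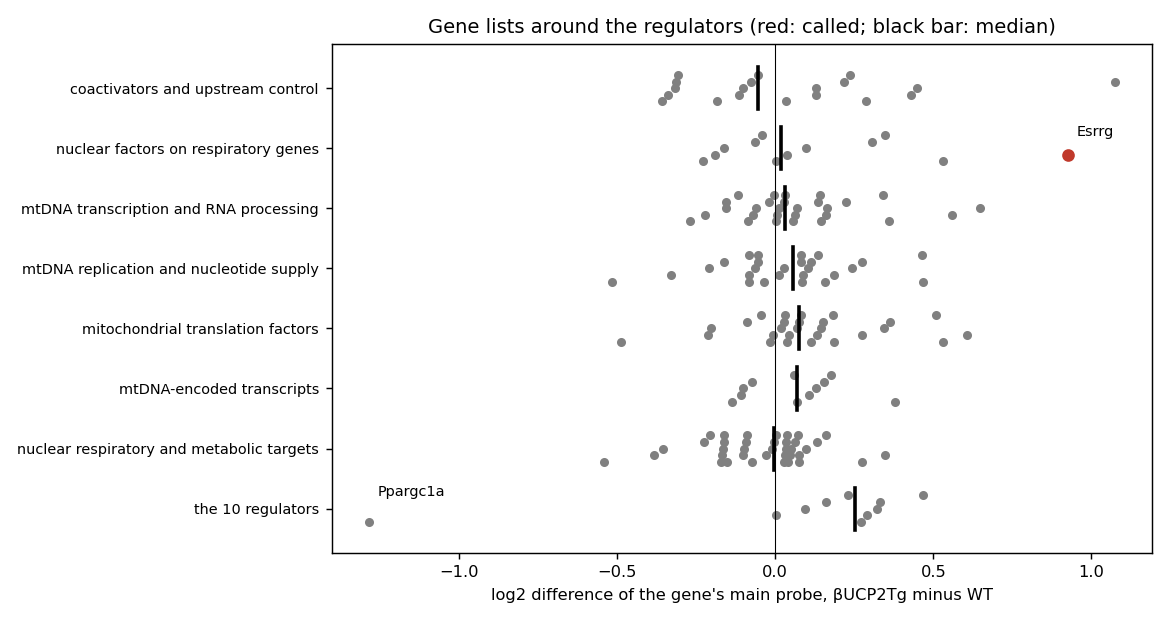
Log2 difference between βUCP2Tg and WT islets (horizontal axis) of the main probe of every tested gene in 7 lists around the regulators and of the 10 regulators, with black bars at list medians and called genes in red. *Esrrg* is the called gene, and the medians of the 7 lists lie between -0.05 and 0.08.

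The genes that carry out mtDNA expression had 0 calls. Of the 28 tested genes for mtDNA transcription and RNA processing, 2 were higher and 0 lower at an unadjusted p under 0.05 (all tested genes: 12.9% and 11.6%), with a median of 0.03. The largest were *Mterf2*, a relative of the mitochondrial termination factor (0.65, adjusted p = 0.224 by limma), *1110008L16Rik*, the array's name for the RNase P subunit gene *Prorp* (0.56, adjusted p = 0.0955), and *Ptcd2* (0.36, adjusted p = 0.100). *Mterf2* was called higher without WT replicate 1 (0.94, adjusted p = 0.0254 by limma), and *1110008L16Rik* likewise (0.68, adjusted p = 0.0176). That fit called 15.2% of all genes.

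For mtDNA replication and nucleotide supply, 3 of 26 genes were higher and 2 lower at an unadjusted p under 0.05 (all tested genes: 12.9% and 11.6%). The list's median was 0.05, against 0.11 without WT replicate 1, -0.01 without WT replicate 2 and -0.06 with the mean of all probes. *Tk2*, the mitochondrial thymidine kinase, had a difference of 0.46 with groups that did not overlap (adjusted p = 0.0635 by limma). *Twnk*, the replicative helicase, had 0.47 (adjusted p = 0.112), and *Lonp1*, a matrix protease that degrades TFAM, had -0.52 with groups that did not overlap (adjusted p = 0.106). *Suclg2* was the other higher gene (0.24) and *Clpx*, a partner of a matrix protease, the other lower one (-0.33). Among the 27 mitochondrial translation factors, 4 were higher and 1 lower at an unadjusted p under 0.05 (all tested genes: 12.9% and 11.6%), with a median of 0.08. The largest were *2810006K23Rik*, the array's name for *Mtrfr* (0.61, adjusted p = 0.125 by limma), *Mtg1* (0.53, adjusted p = 0.194) and *Nsun3* (0.51, adjusted p = 0.112). *Oxa1l* (0.27) was the other higher gene and *Mtif2*, an initiation factor, the lower one (-0.49). Without WT replicate 1 these 3 were called higher, between 0.64 and 0.76, which is 3 of 27 genes where 15.2% of all genes were called.

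Of the transcripts made from mtDNA, 0 were called. Of the 15 mitochondrial transcripts on the list, 11 were matched on the array and tested, with a median log2 difference of 0.07 and a range from -0.14 to 0.38, and the median was 0.20 after quantile normalization and after normexp correction. *ND1* read 3.73, 3.85, 3.88 and 4.04 in βUCP2Tg islets and 3.53, 3.32, 3.50 and 3.64 in WT islets, so that its groups did not overlap. Its difference of 0.38 did not pass (95% confidence interval 0.13 to 0.62, adjusted p = 0.102 by limma). *ND3* had 0.15 and *ND6*, the transcript of the other strand, had -0.14, both with intervals that span 0. One of the 8 arrays is missing from the value of *COX2* (WT replicate 4, where its spot was marked as an outlier), so *COX2* is left out of the list's mean level. That mean level over 10 genes lay between 4.98 and 5.04 on the βUCP2Tg arrays and between 4.92 and 5.02 on the WT arrays.

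Nuclear genes for respiration and metabolism, many of them known targets of the regulators, had 0 calls among 37 tested and a median of 0.00. At an unadjusted p under 0.05, 0 were higher and 2 lower, against 12.9% and 11.6% of all tested genes. *Cpt1b*, the muscle form of the fatty acid import enzyme, had -0.54 (adjusted p = 0.125 by limma) and was called lower without βUCP2Tg replicate 4 (-0.70, adjusted p = 0.0374). That fit called 5.91% of all genes. *Sod2*, the mitochondrial superoxide dismutase, had -0.38 (adjusted p = 0.327 by limma). *Ndufb8*, a complex I subunit, lay between 4.76 and 5.22 on the WT arrays and between 4.86 and 5.12 on the βUCP2Tg arrays, a difference of 0.03 (95% confidence interval -0.28 to 0.35).

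The hormone genes match the islet label, since *Ins1* (8.25 to 8.77), *Ins2* (8.996 to 9.37), *Gcg* (7.41 to 8.10) and *Sst* (7.07 to 7.56) were bright on all 8 arrays. Their log2 differences lay between -0.18 and 0.04, and none was called. The mean of 7 β-cell markers lay between 4.81 and 5.13 on the βUCP2Tg arrays and between 4.75 and 5.28 on the WT arrays. Markers of other cell types were above background on all arrays, and 0 were called. Lower at an unadjusted p under 0.05 were 1 of 7 β-cell markers (*Mafa*, -0.34), 2 of 3 duct markers (*Krt19*, -1.63, and *Sox9*, -0.88) and 1 of 4 macrophage markers (*Cd68*, -0.88). Higher were 1 of 4 endothelial (*Kdr*, 0.76), 1 of 3 stellate (*Pdgfrb*, 0.40) and 1 of 6 α, δ and PP cell markers (*Hhex*, 0.43). Over all tested genes, 12.9% were higher and 11.6% lower at that limit. The brightest of the remaining lists in WT islets, *Amy2a5*, *Spp1*, *Plvap* and *Ppy*, had differences of -2.02, -0.37, 0.40 and 0.27, none of them past that limit. The duct list lay between -1.59 and -1.23 on the βUCP2Tg arrays and between -1.24 and -0.04 on the WT arrays, the macrophage list between -0.44 and 0.25 and between -0.04 and 0.64, the endothelial list between 0.95 and 1.23 and between 0.56 and 1.09, and the stellate list between -2.22 and -1.97 and between -3.30 and -1.88. Their part in the regulators' values was not tested.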

How the data were processed

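Islet RNA of 4 βUCP2Tg and 4 WT samples was measured on one-colour Agilent arrays, 1 array a sample. The authors scanned the arrays with Agilent Feature Extraction (9.1 per the labels, while the file headers name a later version), which gives each spot's intensity on a linear scale after background subtraction, with no scaling between arrays. Build mm9 stands in the file headers. The deposited table of the authors' GeneSpring analysis gives normalized log2 values, each the log2 intensity minus a shift per array, with gene symbols, and also the authors' fold changes and p-values, which were not used. A flag in the same deposited scanner files, used here as a yes or no score, marks spots well above background.

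Control spots and the 48 to 106 outlier spots per array were left out, log2 intensities were reduced by each array's 75th percentile, and spots of a probe were averaged. Probes with at least 50% of spots well above background on at least 4 of 8 arrays entered a linear model in limma (version 3.58.1, R version 4.3.3) with moderated variances. Benjamini-Hochberg adjustment ran over 35363 probes, and calls needed an adjusted p under 0.05 together with a change over 1.5-fold. A gene is called when a probe is, and its values are those of its brightest probe over 8 arrays. Single probes were also compared with two-sided exact permutation tests. The 75th percentile lay between 8.996 and 9.16 on the βUCP2Tg arrays and between 8.78 and 8.89 on the WT arrays, 0 spots were saturated, and the number of arrays limits the precision. On simulated data for this comparison (35343 probes), 55% of 2-fold and 84% of 4-fold changes among 200 changed probes were called, with 8 false calls. The simulated probes varied independently, so shifts shared by many probes of an array are not covered.

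The members, gene lists and rules for named genes were chosen with earlier results of these data known. Named were all 10 regulators with every probe, *Ucp2*, *Ins1*, *Ins2*, *Gcg*, *Sst*, *Ndufb8*, each list's called genes and its 3 largest differences measured on all arrays, the brightest marker of each list in WT, and the 5 probes most like *Ppargc1a*. A gene that this rule names is not reported here. Alternatives were no filter and a filter at 8 arrays, quantile and another percentile scaling, normexp (offset 50), the authors' deposited values, outlier spots kept, an intensity trend, the methods' t-test, no fold limit, means over probes, the replicate block and leaving arrays out. Sequences came from RefSeq and the deposited table. Plots used matplotlib 3.10.9 in Python 3.11.15.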

Additional observations from a re-analysis of the deposited data

Results flagged for a closer look

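In 4 of 50 groups of 4 arrays examined (the 10 regulators and 15 gene lists, in each genotype), 1 array lay far from the other 3, where chance gives about 1 group in 20, or 2.5 groups here. The measure is the gap to the nearest array divided by the range of the group. *Ppargc1a* was higher on βUCP2Tg replicate 4 than on the other βUCP2Tg arrays (ratio 0.868, a scaled log2 signal of -1.11 against -2.18 to -2.04). The hypoxia response list was high on that same array (ratio 0.984, 2.40 against 1.09 to 1.11) and low on WT replicate 1 (ratio 0.938, 1.84 against 2.74 to 2.80). The duct markers were low on WT replicate 1 (ratio 0.905, -1.24 against -0.16 to -0.04).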

How the results depend on the processing

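With all 8 arrays and the settings of the report no regulator was called. *Ppargc1a* remained lower in βUCP2Tg islets under the 14 alternatives other than leaving out 1 array (log2 difference -1.62 to -0.95) and was called in 4 of them, which gave 1 regulator called lower with normexp, with an intensity trend and with the unadjusted methods' t-test, and 2 with both βUCP2Tg replicate 4 and WT replicate 1 left out, where *Esrra* was the other. In that last fit 2 regulators were called higher (*Nrf1* and *Tfb1m*), and 11 genes of the 7 lists higher and 12 lower, where 21.9% of all genes were called. Leaving out 1 array at a time gave between 0 and 3 regulators called higher (3 without WT replicate 1: *Nrf1*, *Ppargc1b* and *Tfb1m*) and between 0 and 1 lower, and between 0 and 9 list genes higher and 0 and 6 lower, the most without WT replicate 1 and without βUCP2Tg replicate 4, where 15.2% and 5.91% of all genes were called. The list count of 1 gene higher and 0 lower became 4 and 5 with the unadjusted methods' t-test, where 11.4% of all genes were called. It became 0 higher with the adjusted t-test (0.112% of all genes called), with no filter on dim probes (0.0557%) and with the replicate block (0.0504%). *Esrra* turned to -0.27 (adjusted p = 0.210 by limma) with the mean of its probes and lay between -0.036 and 0.0388 with 1 array left out. Same-numbered arrays of the groups had correlations of their deviations of 0.437, -0.047, -0.009 and -0.241. The labels name no pairs, and these correlations cannot show whether the samples were paired. With the replicate block, 0 regulators and 0 list genes were called, and 0.0504% of all genes. The counts of list genes in this paragraph hold calls through probes above background on all 8 arrays alone. Calls through dimmer probes are not counted, among them those of a *Prkag2* probe that passed the filter through the group where it is high. The main probes of the other 7 regulators kept their sign and were not called under any of these settings, although with both arrays left out *Nrf1* (0.53, adjusted p = 0.0122 by limma) and *Tfam* (0.50, adjusted p = 0.0227) passed the p limit and missed the fold limit, and *Tfb2m* reached 0.45 (adjusted p = 0.0573). Dim probes limit *Nrf1*, *Tfb1m* and *Polg*, which have a probe each at background. The causes were not tested.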

Other observations

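Probes of a list gene did not always give the same difference, and the genes named here were chosen after their values were seen. *Prkag2* encodes a regulatory subunit of AMP-activated kinase. Its bright probe (A_55_P2013296) had a log2 difference of 0.13 between βUCP2Tg and WT islets (adjusted p = 0.621 by limma). A dim probe (A_55_P2715316) read -5.21, -6.08, -5.90 and -4.72 in βUCP2Tg islets, where it was well above background on 2 arrays, and -4.52, -3.01, -3.17 and -2.82 in WT islets, where it was so on all 4. It passed the filter on dim probes through the group where it is high, so no test of its difference is given here.

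*Gabpb1*, a subunit of the respiratory factor GABP, had 4 probes well above background on all 8 arrays, with differences between -0.60 and -0.16 on the log2 scale and none called (adjusted p between 0.104 and 0.380 by limma). Without WT replicate 1, 3 of the 4 were called lower, at -0.75 to -0.70, where 15.2% of all genes were called. *Kat2a* went the other way in that fit, with 1 probe called higher (0.76, adjusted p = 0.0200 by limma).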
